A study of Mus musculus with 6 samples.

Results

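Cadherins and protocadherins are the calcium-dependent adhesion receptors of the cadherin superfamily. The 94 genes described here are those of the 24391 in the count tables whose symbol is Cdh followed by a number (23 genes) or begins with Pcdh (71 genes). They were measured by RNA sequencing in 3 libraries labelled KMT2D KO and 3 labelled KMT2D WT, all made from tumour cells of iBIP mice grown in culture. KMT2D KO cells came from mice that were KMT2DL/L, with both Kmt2d alleles floxed, and KMT2D WT cells from mice that were KMT2D+/+. The mice of both groups also carried Tyr-CreERT2, a tamoxifen-activated Cre driven by the tyrosinase promoter of melanocytes, Rosa26-rtta with the doxycycline-induced TetO-BRAFV600E transgene, and the floxed INK/ARFL/L alleles. They had a mixed FVB and B6 background, were given doxycycline and developed ear tumours after 4-OHT was painted on the ears, so both groups share the BRAF transgene and the floxed Ink4a/Arf alleles. The protein made from Kmt2d adds methyl groups to histone H3, chiefly at enhancers. No label states an age, or how many tumours, mice or cultures a group came from, and the file headers give the 3 libraries of each group 1 shared identifier. P-values therefore rest on the spread among libraries alone, possibly a technical one, and the genotype cannot be told apart from the tumour of origin. In such bulk RNA, fewer cells of a type and less RNA per cell also cannot be told apart.

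Classical cadherins bind the same cadherin on a neighbouring cell through their outer domains and hold the actin cytoskeleton through catenins bound to their tail. Melanocytes attach to keratinocytes through E-cadherin (Cdh1), and melanoma cells often carry N-cadherin (Cdh2) in its place. Protocadherins lack the catenin-binding tail. Most of them lie in the clusters Pcdha, Pcdhb and Pcdhg on chromosome 18, where each variable exon has its own promoter. In neurons a cell uses only a few of these promoters, and the set it uses gives the cell a surface identity.

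Total counts ranged from 55594979 to 79718782 in KMT2D KO and from 43168605 to 59360068 in KMT2D WT, and counts were scaled to library size with TMM factors and are given as CPM, the usual depth-scaled unit. Kmt2d gave 72.96, 69.3 and 79.8 CPM in KMT2D KO and 79.7, 87.6 and 101 CPM in KMT2D WT, with groups that overlapped (log2 fold change -0.27, edgeR adjusted p = 0.0075), and the call was lost without KMT2D KO replicate 2 (-0.21). These counts cover the whole gene and do not single out floxed exons. The cells are labelled as melanoma tumour cells, yet of 8 melanocyte markers 5 had under 1 CPM in both groups, namely Sox10, Tyr, Tyrp1, Dct and Mlana. Pax3 (142 CPM in KMT2D KO and 65.04 CPM in KMT2D WT) and Mitf (53.2 CPM in KMT2D KO and 15.4 CPM in KMT2D WT) were present and rose. All 7 fibroblast markers could be tested, and 5 rose and 2 fell (their summed level was 14156 to 14719 CPM in KMT2D KO and 5006 to 5184 CPM in KMT2D WT, mostly Col1a2). Of all tested genes, 71.0% were called higher or lower. Endothelial markers summed to 0.752 to 1.20 CPM in KMT2D KO and 1.63 to 2.82 CPM in KMT2D WT, with none of 8 at 1 CPM and Vwf the most abundant. Skeletal muscle markers, led by Des, summed to 0.456 to 0.570 CPM in KMT2D KO and 0.667 to 1.48 CPM in KMT2D WT, with Myog at 0. Keratinocyte markers summed to 17.95 to 18.9 CPM in KMT2D KO and 7.41 to 9.26 CPM in KMT2D WT, with Trp63 at 10.2 CPM in KMT2D KO and 0.784 CPM in KMT2D WT and Krt5 under 1 CPM. Of the 6 keratinocyte markers tested, 2 were called higher and 4 were not called. Among those not called, Krt10 averaged 2.47 CPM in KMT2D KO and 3.42 CPM in KMT2D WT. Krt14 (1.43 CPM in KMT2D KO and 1.35 CPM in KMT2D WT) and Krt1 (1.35 CPM in KMT2D KO and 1.32 CPM in KMT2D WT) were also not called. The labels' extraction protocol names cerebellar tissue, but cerebellar and neuronal markers summed to 3.17 to 4.87 CPM in KMT2D KO and 1.27 to 1.52 CPM in KMT2D WT. Of these Cbln3 was the most abundant, and Neurod1 had 1 count in all. Immune markers summed to 3.06 to 3.74 CPM in KMT2D KO and 9.65 to 15.3 CPM in KMT2D WT, chiefly Cd68. What part other cells had in the cadherin values was not tested.

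Cadherin and protocadherin genes were active in both groups, and by mean level per kilobase Cdh11 and Pcdhgc3 led in both. Which of the Pcdhga and Pcdhgb genes led differed between the groups. Members took 0.326% to 0.332% of all counts in KMT2D KO and 0.244% to 0.263% in KMT2D WT. Their mean summed level was 3424.5 CPM in KMT2D KO and 2422 CPM in KMT2D WT. Of this, Cdh11 alone gave 1743 CPM in KMT2D KO and 573 CPM in KMT2D WT. Of the 94, 68 passed the low-count filter, 54 averaged at least 1 CPM in a group, and 9 had no count in any library. Among the 68 tested, edgeR's quasi-likelihood test called 17 higher and 33 lower in KMT2D KO at a Benjamini-Hochberg adjusted p under 0.05 over all genes, and did not call 18. The 50 calls are 73.5% of the tested members, near the 71.0% of all 14579 tested genes. Across all genes, 35.4% were called higher and 35.5% lower. With an absolute log2 fold change above 1 the calls were 12 higher and 26 lower, together 55.9% of the tested members, where the share over all genes was 26.8%. A member with few counts in 1 group can pass the filter through the other group alone, so these shares are descriptions. Others, such as Cdh1 and Cdh3, passed with few counts in both groups. In 52 of the 68 members every KMT2D KO library lay on the same side of all KMT2D WT libraries, which held for 74.3% of all tested genes. The median log2 fold change of the tested members was -0.48, and that of all tested genes was 0.00405.

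**Figure D1:**
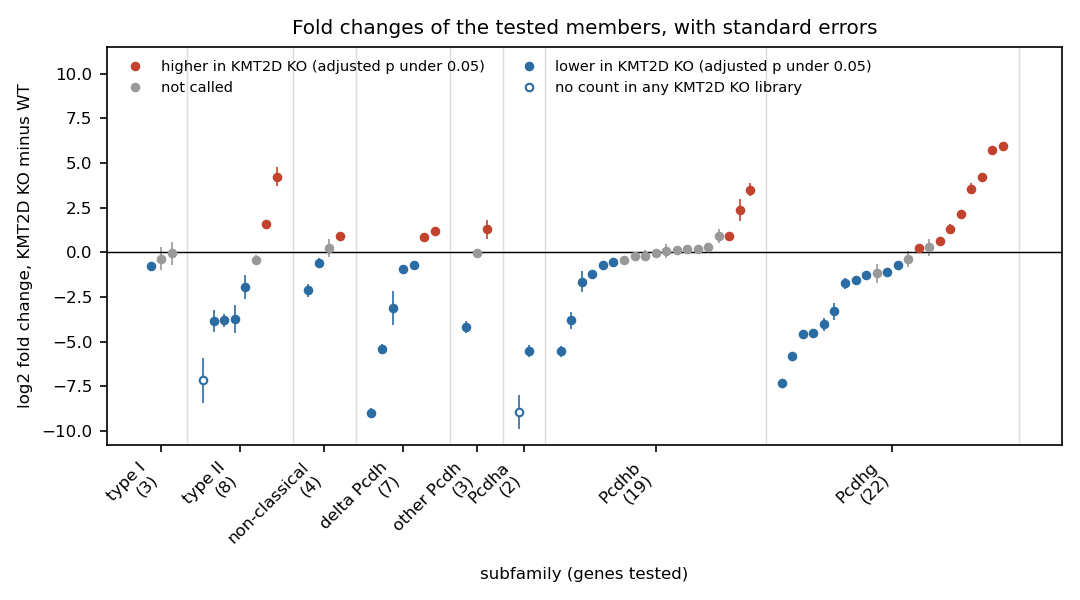
Log2 fold change (KMT2D KO minus KMT2D WT) of the 68 tested cadherin and protocadherin genes, grouped by subfamily, with standard errors from edgeR. Red points were called higher and blue points lower, and the open points are genes with no count in KMT2D KO, whose fitted value depends on the prior count. The Pcdhg cluster spans -7.30 to 5.94, while 10 of 19 Pcdhb genes were not called.

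The median change also differed between chromosomes. Chromosome 18 carries 62 of the members, and its 401 tested genes had a median log2 fold change of -0.50. The 46 tested members there had a median of -0.30. The medians were 0.21 on chromosome 8 (Cdh1, Cdh3, Cdh5, Cdh11 and Cdh13), -0.36 on chromosome 5 (Pcdh7), -0.13 on chromosome 14, 0.04 on chromosome 15, 0.27 on chromosome 2, 0.13 on chromosome 4 (Cdh17), -0.11 on chromosome 10 (Cdh23 and Pcdh15), -0.06 on chromosomes 1 and 3, and 0.19 on chromosome X. What set these medians was not tested.

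Among classical cadherins, Cdh11 was by far the most abundant gene in both groups. Cdh11 (mm9 chromosome 8, 105156895 to 105309011) encodes OB-cadherin, a type II cadherin of mesenchymal cells and osteoblasts. It gave 1743, 1736 and 1749 CPM in KMT2D KO replicates 1, 2 and 3, against 581, 559.7 and 577 CPM in KMT2D WT replicates 1, 2 and 3. The groups did not overlap, and the log2 fold change was 1.61 (standard error 0.05, edgeR's adjusted p = 2.4e-13). By mean level per kilobase of exon, Cdh11 ranked highest of the members in both groups, with 413 CPM per kb in KMT2D KO and 136 CPM per kb in KMT2D WT. In KMT2D WT replicate 2, Pcdhgc3 lay above it (136.3 against 132.8 CPM per kb).

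The type I gene Cdh2, which encodes N-cadherin, moved the other way. It gave 63.7, 61.3 and 64.7 CPM in KMT2D KO, against 104, 104 and 112 CPM in KMT2D WT, which is -0.75 in log2 fold change (SE 0.06, adjusted p = 1.6e-08). It lies on chromosome 18, so its fall stands beside that chromosome's median of -0.50. Per kilobase, Cdh11 held 96.4, 96.6 and 96.4% of the summed level of the 18 classical cadherin genes in the KMT2D KO libraries, against 83.9, 83.6 and 83.8% in the KMT2D WT libraries. Cdh2 held 3.201, 3.09 and 3.24% in KMT2D KO, against 13.6, 14.1 and 14.7% in KMT2D WT. The ratio of Cdh11 to Cdh2 per kilobase was therefore 30.1, 31.2 and 29.8 in KMT2D KO and 6.17, 5.94 and 5.68 in KMT2D WT. Col1a2, Col1a1 and Pdgfra, which mark fibroblasts, rose in the same libraries (log2 fold changes 1.74, 1.37 and 1.12), while Dpt (-5.69) and Lum (-1.29) fell.

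The epithelial and endothelial cadherins were nearly silent. Cdh1, which encodes E-cadherin, had 15, 6 and 11 counts in KMT2D KO and 6, 16 and 7 counts in KMT2D WT. Cdh3, the P-cadherin gene of basal keratinocytes, had 16, 11 and 10 counts in KMT2D KO and 26, 13 and 3 counts in KMT2D WT. Neither was called (log2 fold changes -0.06 and -0.35, adjusted p = 0.94 and 0.64), and leaving out single libraries turned both signs. Cdh5, the VE-cadherin gene of endothelial cells, had 12, 7 and 8 counts in KMT2D KO and 6, 16 and 11 counts in KMT2D WT and did not pass the filter. At these counts a small difference in these 3 genes would not have been detectable.

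The remaining type II genes were low. Of the 8 type II genes tested, 2 were called higher, Cdh11 among them, 5 were called lower and 1 was not called. Over all tested genes, 35.4% were called higher and 35.5% lower. The other 5 of the 13 type II genes were not tested. Cdh6, the K-cadherin gene of kidney and neural crest, averaged 0.235 ± 0.107 CPM in KMT2D KO and 3.22 ± 0.937 CPM in KMT2D WT (SD, n = 3 each), a log2 fold change of -3.81 (edgeR adjusted p = 3.1e-07). Cdh19, a cadherin of Schwann cell precursors, had 5, 5 and 11 counts in KMT2D KO and 167, 83 and 30 counts in KMT2D WT. It fell by 3.84 on the log2 scale with a wide spread in KMT2D WT, where replicate 3 was lowest. Leaving out KMT2D KO replicate 3 gave -4.44, and leaving out KMT2D WT replicate 1 gave -3.13. Cdh22, a type II gene best known from the brain, rose, with 93, 70 and 86 counts in KMT2D KO against 2, 3 and 6 counts in KMT2D WT (log2 fold change 4.24, SE 0.53, adjusted p = 4.8e-06), and its value was 4.93 without KMT2D WT replicate 3. Cdh24 was not called (2.54, 1.99 and 1.899 CPM in KMT2D KO and 3.59, 3.12 and 1.79 CPM in KMT2D WT). Named after their values were seen, Cdh10 (-3.73) and Cdh18 (-1.95), which lie on chromosome 15 like Cdh6, fell at levels of at most 0.438 CPM in either group. Cdh10 was at -4.48 without KMT2D KO replicate 1. The call of Cdh18 was lost without KMT2D KO replicate 1 (-1.48), KMT2D KO replicate 2 (-2.03), KMT2D WT replicate 1 (-1.85) or KMT2D WT replicate 2 (-1.9). That call was also lost with no low-count filter (-1.88). Cdh12, which lies between Cdh10 and Cdh18, had no count in KMT2D KO and 11, 20 and 18 counts in KMT2D WT. This puts it at least 18.9-fold lower in KMT2D KO with a floor of 3 counts over the group.

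The non-classical cadherins were led by Cdh13. Cdh13 (chromosome 8, 120807655 to 121847348) encodes T-cadherin, which is held on the membrane by a lipid anchor and has no tail for catenins. It gave 224, 216 and 225 CPM in KMT2D KO, against 113, 118 and 119 CPM in KMT2D WT, which is 0.92 in log2 fold change (SE 0.05, adjusted p = 4.6e-10). Cdh17, the liver-intestine cadherin, fell to 0.362 ± 0.127 CPM in KMT2D KO, against 1.58 ± 0.187 CPM in KMT2D WT (log2 fold change -2.13). Cdh23, a component of the hair cell tip link, averaged 2.04 ± 0.622 CPM in KMT2D KO and 3.05 ± 0.771 CPM in KMT2D WT. Its log2 fold change of -0.59 lay at the threshold (edgeR adjusted p = 0.049), the groups overlapped, and 8 of 13 alternative settings called it, with adjusted p from 0.016 to 0.26. The call was lost without KMT2D KO replicate 1 (-0.52), KMT2D KO replicate 2 (-0.40) or KMT2D WT replicate 2 (-0.37). Its tip-link partner Pcdh15 did not differ beyond its spread (3.69, 2.83 and 3.85 CPM in KMT2D KO and 4.02, 3.003 and 3.71 CPM in KMT2D WT, log2 fold change -0.05, adjusted p = 0.83).

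**Figure D2:**
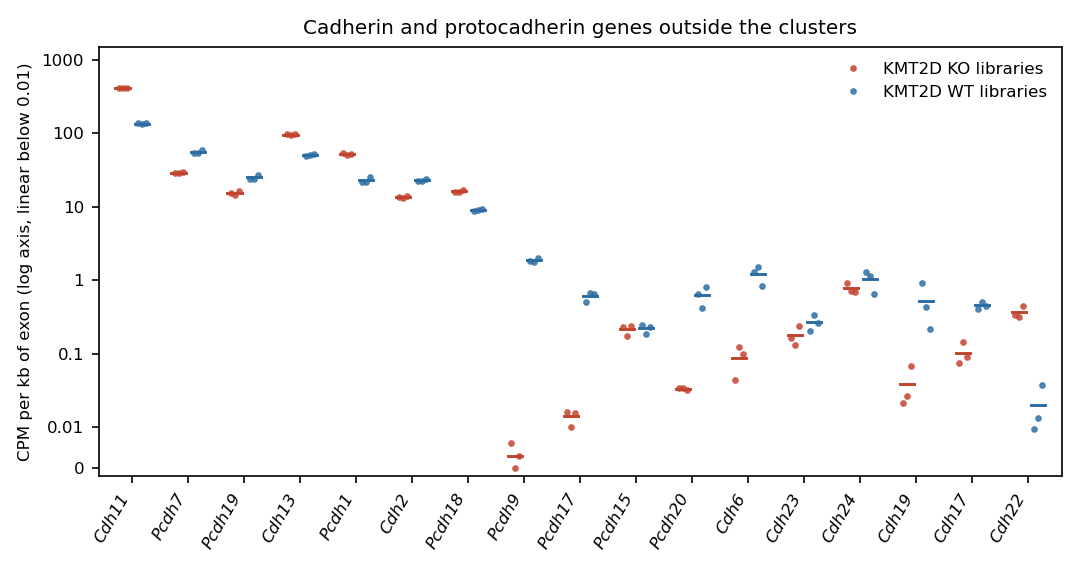
Levels of the 17 cadherin and protocadherin genes outside the clusters that averaged at least 1 CPM in a group, in CPM per kilobase of exon on a log axis that is linear below 0.01. Each point is a library and each bar the mean of 3 libraries, with KMT2D KO left of KMT2D WT. Cdh11, Cdh13, Pcdh1 and Pcdh18 are higher in KMT2D KO, and Pcdh9, Pcdh17 and Pcdh20 lie far below their KMT2D WT levels.

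Delta protocadherins are solitary genes that act in cell sorting and in the growth of neurites, and 4 of them were abundant. Pcdh7 (chromosome 5, 58109260 to 58523479) gave 266, 261 and 274 CPM in KMT2D KO, against 496, 493 and 548 CPM in KMT2D WT, and fell by 0.94 on the log2 scale (SE 0.05, adjusted p = 8.3e-10). Pcdh19 (chromosome X, 130117400 to 130223532), which in humans is mutated in an epilepsy, gave 162, 150.02 and 169 CPM in KMT2D KO, against 249.8, 251 and 277 CPM in KMT2D WT (log2 fold change -0.69). Both were lower in every KMT2D KO library than in any KMT2D WT library. Pcdh1, an epithelial and airway protocadherin on chromosome 18, gave 211, 196 and 204 CPM in KMT2D KO, against 86.3, 84.6 and 98.4 CPM in KMT2D WT, a rise of 1.18 (SE 0.06, adjusted p = 3.1e-10) on a chromosome with a median of -0.50. Pcdh18 (chromosome 3, 49547218 to 49561238) gave 83.4, 82.4 and 86.7 CPM in KMT2D KO, against 45.1, 47.1 and 48.7 CPM in KMT2D WT (log2 fold change 0.84). Of the 7 delta protocadherins tested, 2 rose and 5 fell, where 71.0% of all tested genes were called.

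Pcdh17, Pcdh20 and Pcdh9 lie in this order on chromosome 14, with other genes between Pcdh17 and Pcdh9, and all 3 fell. Pcdh9 (mm9 93412919 to 94289888), a delta protocadherin of the brain, had 3, 0 and 1 counts in KMT2D KO, against 666, 686 and 564 counts in KMT2D WT, which is -8.99 in log2 fold change (SE 0.30, edgeR adjusted p = 1.1e-12). With so few KMT2D KO counts the size is loose, and it was -10.05 without KMT2D KO replicate 1. Pcdh17 (mm9 84843370 to 84936867), a delta protocadherin of synapses and axons, had 12, 6 and 8 counts in KMT2D KO, against 279, 403 and 276 counts in KMT2D WT (-5.4, adjusted p = 1.4e-10). Pcdh20 (mm9 88864554 to 88871203) had 14, 11 and 9 counts in KMT2D KO, against 203, 136 and 188 counts in KMT2D WT (-4.19, adjusted p = 4.5e-08). In none of the 3 genes did a KMT2D KO library reach the KMT2D WT range. Of the other genes that start between Pcdh17 and Pcdh9, 3 could be tested and none was called, where 71.0% of all tested genes were. The formin gene Diap3 averaged 19.9 ± 0.385 CPM in KMT2D KO and 22.02 ± 2.55 CPM in KMT2D WT, and the Tudor domain gene Tdrd3 41.2 ± 2.49 CPM in KMT2D KO and 39.98 ± 2.201 CPM in KMT2D WT (log2 fold changes -0.15 and 0.04, edgeR adjusted p = 0.17 and 0.59). Pcdh8 on the same chromosome had at most 4 counts in any library.

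The promoters of these 3 genes are shown beside those of 2 solitary members that rose, Cdh22 and Pcdh18. The sequences are from RefSeq, build GRCm38.p6, and cover 250 bases before to 50 after the annotated start on the gene's own strand. They are written 5′ to 3′ with every CG dinucleotide in capitals. Such sites are where DNA methylation occurs in mammals, and the motif CG reads the same on both strands. The intervals are chr14:93890630-93890929 (minus strand, the first of 2 starts listed), chr14:84443313-84443612 (plus), chr14:88471347-88471646 (minus), chr2:165234688-165234987 (minus) and chr3:49757267-49757566 (minus).
Pcdh9: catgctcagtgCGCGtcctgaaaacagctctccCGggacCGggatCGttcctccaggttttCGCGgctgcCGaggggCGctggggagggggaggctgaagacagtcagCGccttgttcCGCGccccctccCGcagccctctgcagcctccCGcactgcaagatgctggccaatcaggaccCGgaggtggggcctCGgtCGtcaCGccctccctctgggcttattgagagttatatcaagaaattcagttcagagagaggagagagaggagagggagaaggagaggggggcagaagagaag
Pcdh17: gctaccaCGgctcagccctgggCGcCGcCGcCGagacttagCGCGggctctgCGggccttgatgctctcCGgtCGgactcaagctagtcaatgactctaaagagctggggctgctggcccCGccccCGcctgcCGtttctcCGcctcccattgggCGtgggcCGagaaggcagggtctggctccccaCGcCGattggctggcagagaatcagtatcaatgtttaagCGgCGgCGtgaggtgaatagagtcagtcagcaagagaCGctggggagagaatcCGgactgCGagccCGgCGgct
Pcdh20: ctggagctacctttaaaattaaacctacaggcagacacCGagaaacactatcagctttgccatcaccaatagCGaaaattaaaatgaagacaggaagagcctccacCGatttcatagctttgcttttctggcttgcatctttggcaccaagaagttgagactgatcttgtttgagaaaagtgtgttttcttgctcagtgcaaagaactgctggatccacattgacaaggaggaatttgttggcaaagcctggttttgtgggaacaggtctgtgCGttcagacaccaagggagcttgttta
Cdh22: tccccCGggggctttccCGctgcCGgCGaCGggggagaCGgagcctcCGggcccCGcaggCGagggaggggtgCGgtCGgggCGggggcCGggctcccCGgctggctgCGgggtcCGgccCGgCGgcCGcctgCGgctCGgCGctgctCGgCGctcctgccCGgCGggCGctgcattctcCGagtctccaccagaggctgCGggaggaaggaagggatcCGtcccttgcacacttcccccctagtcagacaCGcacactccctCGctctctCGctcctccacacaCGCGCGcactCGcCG
Pcdh18: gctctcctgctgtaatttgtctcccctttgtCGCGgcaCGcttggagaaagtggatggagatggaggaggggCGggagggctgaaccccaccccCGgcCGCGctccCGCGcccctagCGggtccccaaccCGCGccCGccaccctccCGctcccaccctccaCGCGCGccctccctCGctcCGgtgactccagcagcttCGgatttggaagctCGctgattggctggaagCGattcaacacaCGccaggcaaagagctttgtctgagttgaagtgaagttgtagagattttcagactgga
The promoter of Pcdh9 holds 18 CG sites, that of Pcdh17 holds 26 and that of Pcdh20 holds 4. The promoter of Cdh22 holds 38 CG sites and that of Pcdh18 holds 23. Among 27025 promoters of this length the median was 7, and 94.2% held at least 1. A count as high as that of Cdh22 occurred in 4.78% of them, of Pcdh17 in 16.8%, of Pcdh18 in 21.6%, of Pcdh9 in 30.1% and of Pcdh20 in 68.1%. The fallen genes thus include promoters both rich and poor in CG sites. DNA methylation was not measured. Of the 94 members, 22 matched an entry of this promoter table.

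The clustered genes need a further word on counting. Each Pcdha or Pcdhg transcript joins its own variable exon to constant exons used by its whole cluster, and 39 of the 94 members share exon bases with another gene in the annotation. The counting command in the file headers names no option for fragments lying over more than 1 gene, which featureCounts then leaves out. Counts of these genes thus rest on fragments that reach the exon stretch that no other gene has. Levels per kilobase below use the length of that stretch and are approximate. Pcdha4, Pcdha6 and Pcdha7 have 0 unshared bases in this annotation, so their counts of 0 in all 6 libraries do not show their level. The single-exon Pcdhb genes do not share bases, but their sequences resemble each other, and fragments that map to several of them are also left out by default.

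The total of the Pcdhg cluster overlapped between the groups, while single genes of it moved far in both directions. Its 22 genes summed to 578, 572 and 594 CPM in KMT2D KO, against 527, 573 and 588 CPM in KMT2D WT (two-sided exact permutation p = 0.5, n = 3 each, where 0.1 is the smallest possible). Of the 22, edgeR called 8 higher and 11 lower, where 71.0% of all tested genes were called. With an absolute log2 fold change above 1 the calls were 6 higher and 10 lower, where the share over all genes was 26.8%.

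Most of the cluster's counts came from Pcdhgc3, a C-type gene at the 3′ end of the cluster. It gave 405, 397 and 417 CPM in KMT2D KO, against 315, 350.0 and 346 CPM in KMT2D WT, which is 0.27 in log2 fold change (SE 0.05, adjusted p = 0.00042). At means of 158 CPM per kb in KMT2D KO and 131 CPM per kb in KMT2D WT it ranked behind Cdh11 alone among the members. In KMT2D WT replicate 2 it exceeded Cdh11. The other C-type genes moved apart. Pcdhgc5 gave 12.3, 11.3 and 14.03 CPM in KMT2D KO, against 34.2, 35.99 and 38.2 CPM in KMT2D WT (log2 fold change -1.53), and Pcdhgc4 gave 1.77, 2.16 and 2.41 CPM in KMT2D KO, against 0.718, 0.904 and 0.894 CPM in KMT2D WT (log2 fold change 1.33).

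The 19 Pcdhga and Pcdhgb genes, whose promoters are chosen in part by chance in neurons, differed in which of them led. Their sum was 159, 161 and 161 CPM in KMT2D KO, against 177, 187 and 203 CPM in KMT2D WT. In KMT2D KO, 6 of them each held at least 5% of the summed level per kilobase, and together 89.0%. In KMT2D WT, 6 genes likewise held at least 5% each, and together 83.6%. Only 1 gene, Pcdhga10, was in both sets, and Pcdhga6 in KMT2D KO (4.92%) and Pcdhga7 in KMT2D WT (5.05%) lay next to the limit.

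In KMT2D KO the set was Pcdhgb1, Pcdhgb2, Pcdhgb4, Pcdhga3, Pcdhga10 and Pcdhgb7. Pcdhgb1 held 20.2, 20.3 and 19.4% of the level per kilobase in the KMT2D KO libraries, against 0.546, 0.218 and 0.0693% in the KMT2D WT libraries. Its counts were 2402, 1953 and 1618 in KMT2D KO and 54, 24 and 6 in KMT2D WT, which is 5.94 in log2 fold change (SE 0.26, adjusted p = 2.3e-11). Without KMT2D WT replicate 1, which had most of the KMT2D WT counts, it was 6.79. Pcdhgb4 gave 23.9, 24.7 and 26.04 CPM in KMT2D KO, against 0.428, 0.501 and 0.447 CPM in KMT2D WT (5.75, adjusted p = 2.0e-14). Pcdhga3 gave 25.00, 23.8 and 23.6 CPM in KMT2D KO, against 0.889, 1.098 and 2.08 CPM in KMT2D WT (4.2), and Pcdhgb2 gave 30.8, 33.01 and 33.3 CPM in KMT2D KO, against 6.28, 8.06 and 7.601 CPM in KMT2D WT (2.15). Pcdhgb7 averaged 13.01 CPM in KMT2D KO and 1.06 CPM in KMT2D WT (3.57). All of these groups were free of overlap, and the spread between libraries was small beside the difference.

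In KMT2D WT the set was Pcdhgb6, Pcdhga11, Pcdhga4, Pcdhga10, Pcdhga5 and Pcdhga7. Pcdhga11 had 16, 13 and 11 counts in KMT2D KO, against 1857, 2229 and 1442 counts in KMT2D WT, which is -7.3 in log2 fold change (SE 0.14, adjusted p = 3.1e-15). Pcdhgb6 gave 0.717, 0.7 and 0.7897 CPM in KMT2D KO, against 39.7, 37.9 and 44.9 CPM in KMT2D WT (-5.8, adjusted p = 5.9e-15). Pcdhga4 gave 1.38, 1.16 and 1.35 CPM in KMT2D KO, against 27.2, 28.4 and 35.4 CPM in KMT2D WT (-4.54). Pcdhga5 (0.673 CPM in KMT2D KO and 15.5 CPM in KMT2D WT, -4.55) and Pcdhga7 (0.614 CPM in KMT2D KO and 9.78 CPM in KMT2D WT, -4.04) fell as well, and Pcdhga7 was at -4.72 without KMT2D KO replicate 3. The shared gene Pcdhga10 gave 17.9, 17.1 and 16.3 CPM in KMT2D KO, against 27.8, 28.8 and 28.4 CPM in KMT2D WT, or -0.73 on the log2 scale beside the chromosome's median of -0.50. Genes of both sets alternate along the cluster, as Pcdhgb1 and Pcdhgb2 of the KMT2D KO set lie on either side of Pcdhga4 of the KMT2D WT set.

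**Figure D3:**
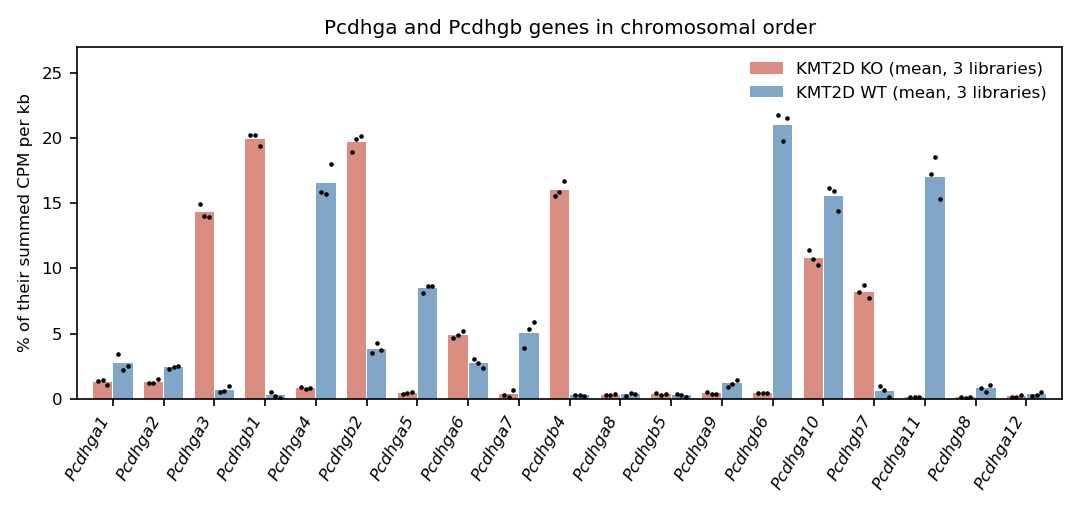
Share of the summed CPM per kilobase of unshared exon that each of the 19 Pcdhga and Pcdhgb genes held, in chromosomal order, with KMT2D KO (red, left) and KMT2D WT (blue, right). Bars are means of 3 libraries and points the libraries. Pcdhgb1 and Pcdhgb2 lead in KMT2D KO at 19.96% and 19.7%, Pcdhgb6 and Pcdhga11 lead in KMT2D WT at 21.03% and 17.03%, and only Pcdhga10 exceeds 5% in both.

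The low Pcdhga and Pcdhgb genes also moved unequally. Pcdhga6 rose (7.83 CPM in KMT2D KO and 4.94 CPM in KMT2D WT, log2 fold change 0.66). Pcdhga1 (-1.28), Pcdhga2 (-1.09), Pcdhga9 (-1.74) and Pcdhgb8 (-3.3) fell and had levels of 1.51 to 4.95 CPM in KMT2D WT. The 3 genes not called, named after their values were seen, were Pcdhga8, Pcdhgb5 and Pcdhga12, which averaged 0.338 to 0.757 CPM in either group.

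In the Pcdhb cluster most of the leading genes were the same in both groups. At least 5% of the summed level per kilobase was held by 6 genes in KMT2D KO and by 5 in KMT2D WT, and 4 genes were in both sets. The 22 genes summed to 87.5, 87.1 and 91.7 CPM in KMT2D KO, against 102, 104 and 121 CPM in KMT2D WT. Among its 19 tested genes 3 rose and 6 fell, so 9 of 19 were called where 71.0% of all genes were. Pcdhb16 was the most used in both groups, with 29.7, 29.3 and 29.6 CPM in KMT2D KO, against 32.03, 30.6 and 40.7 CPM in KMT2D WT. Its log2 fold change of -0.22 was not called (adjusted p = 0.053), although 8 of 13 alternative settings called it, with adjusted p from 0.0062 to 0.31. Pcdhb14 gave 14.4, 13.7 and 14.5 CPM in KMT2D KO, against 11.2, 13.5 and 12.9 CPM in KMT2D WT, and was not called (adjusted p = 0.12).

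The Pcdhb genes that changed lie along the whole cluster. Pcdhb2 had 6, 10 and 4 counts in KMT2D KO, against 258, 275 and 273 counts in KMT2D WT, which is -5.54 in log2 fold change (SE 0.32, adjusted p = 6.9e-10). Its neighbour Pcdhb3 had 12, 3 and 6 counts in KMT2D KO, against 70, 121 and 65 counts in KMT2D WT (-3.8). At the far end Pcdhb22 gave 5.55, 6.300 and 7.03 CPM in KMT2D KO, against 13.1, 13.8 and 17.6 CPM in KMT2D WT (-1.24), and Pcdhb17 averaged 9.63 CPM in KMT2D KO and 16.02 CPM in KMT2D WT (-0.73). In the other direction, Pcdhb13 had 183, 154 and 108 counts in KMT2D KO, against 18, 6 and 9 counts in KMT2D WT, a rise of 3.51 (adjusted p = 1.0e-06), and Pcdhb15 averaged 4.38 CPM in KMT2D KO and 2.31 CPM in KMT2D WT (0.92). Pcdhb5 was called lower (-0.55, adjusted p = 0.027) although its groups overlapped, and 3 of the 6 fits that left out 1 library lost the call. Those were the fits without KMT2D KO replicate 1 (-0.49), KMT2D KO replicate 2 (-0.43) and KMT2D WT replicate 3 (-0.36). Pcdhb11 stood at 0.92 on the log2 scale and was not called (adjusted p = 0.052), while 6 of 12 alternative settings called it. Pcdhb7, Pcdhb9, Pcdhb18, Pcdhb19, Pcdhb20 and Pcdhb21 were not called, with log2 fold changes of -0.42 to 0.3. Of the genes under 1 CPM, named after their values were seen, Pcdhb10 rose (2.35, and 3.5 without KMT2D WT replicate 2) and Pcdhb4 fell (-1.64). Pcdhb4 was at -2.48 without KMT2D KO replicate 3, and its call was lost without KMT2D KO replicate 1 (-1.17), KMT2D KO replicate 2 (-1.46) or KMT2D WT replicate 3 (-1.4).

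**Figure D4:**
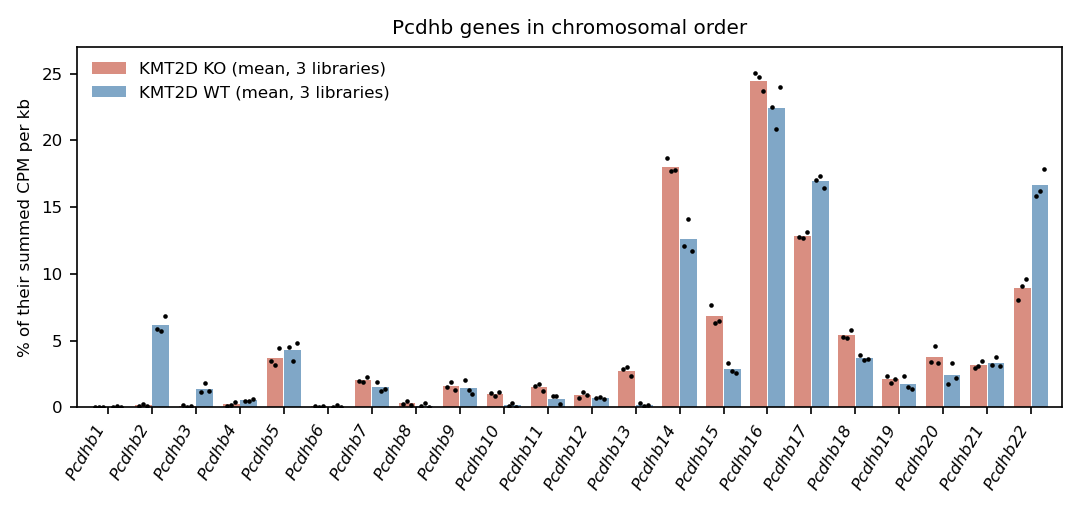
Share of the summed CPM per kilobase that each of the 22 Pcdhb genes held, in chromosomal order, with KMT2D KO (red, left) and KMT2D WT (blue, right). Bars are means of 3 libraries and points the libraries. Pcdhb16 leads in both groups, at 24.5% in KMT2D KO and 22.5% in KMT2D WT, and Pcdhb2 holds 0.167% in KMT2D KO and 6.16% in KMT2D WT.

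The Pcdha cluster had few counts in KMT2D KO. Its 15 genes summed to 0.287, 0.228 and 0.0188 CPM in KMT2D KO, against 5.95, 6.23 and 5.68 CPM in KMT2D WT. Of the 10 sums compared between groups in this way, the Pcdhg total was the only value with overlap, and the other 9 had the smallest exact permutation p of 0.1 (0.11 after Benjamini-Hochberg adjustment over the 10). Of the 15 genes, 2 passed the filter. Pcdhac2, a C-type gene, had 8, 11 and 1 counts in KMT2D KO, against 270, 324 and 213 counts in KMT2D WT, which is -5.52 in log2 fold change (SE 0.35, edgeR adjusted p = 2.2e-09). Pcdha12 had no count in KMT2D KO and 69, 62 and 41 counts in KMT2D WT, which puts it at least 66.4-fold lower in KMT2D KO with a floor of 3 counts over the group. The other 13 had at most 11 counts in any library. Among them, Pcdha4, Pcdha6 and Pcdha7 have 0 unshared bases and Pcdha7-g has 122, so the sum of the cluster does not show their level.

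The genes around the clusters were mostly lower in KMT2D KO. Of 30 tested genes that start within 1 Mb outside the stretch from Pcdha4 to Pcdh12, 1 was higher and 25 were lower, with a median log2 fold change of -0.79. Over all tested genes, 35.4% were called higher and 35.5% lower, and the 401 tested genes of chromosome 18 had a median of -0.50. Of 9 tested genes inside the stretch, 2 were higher and 4 lower, with a median of 0.07. Between the Pcdhb and Pcdhg genes lies Taf7, a subunit of the general transcription factor TFIID. Chosen after its value was seen, it averaged 30.7 ± 2.09 CPM in KMT2D KO and 12.95 ± 2.01 CPM in KMT2D WT (SD, n = 3 each), a log2 fold change of 1.24 (edgeR adjusted p = 5.9e-08).

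Catenins and linkers connect classical cadherins to actin, and 4 of the 10 tested rose while 5 fell. Over all tested genes, 35.4% were called higher and 35.5% lower. Ctnnd1 encodes p120-catenin, which holds cadherins at the surface. It gave 648, 656 and 694 CPM in KMT2D KO, against 177, 189 and 185 CPM in KMT2D WT, which is 1.86 in log2 fold change (SE 0.05, adjusted p = 1.8e-13). Vinculin (Vcl) averaged 674 CPM in KMT2D KO and 341 CPM in KMT2D WT (0.98). Ctnna1, the actin-binding alpha-catenin gene, gave 364, 360.0 and 363 CPM in KMT2D KO, against 599.6, 563 and 582 CPM in KMT2D WT (-0.68). The delta-catenin gene Ctnnd2 fell to 2.34 CPM in KMT2D KO, against 10.4 CPM in KMT2D WT (-2.15). The median of the list was -0.10, where that of all tested genes was 0.00405.

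Other families with cadherin repeats or junction roles moved in both directions, where 71.0% of all tested genes were called. Of 12 tested genes with cadherin repeats, 5 rose and 4 fell (median -0.14), 8 of the 15 found had under 1 CPM in both groups, and the giant cadherin Fat4 averaged 596 CPM in KMT2D KO and 127 CPM in KMT2D WT (2.23). Celsr2, a planar polarity gene, rose as well (2.48), while Dchs1, the ligand of Fat4, fell to 0.351 CPM in KMT2D KO, against 1.902 CPM in KMT2D WT (-2.48, and -3.25 without KMT2D KO replicate 3), and Celsr3 fell too (-1.16). Desmosome genes were mostly silent, with 11 of 13 under 1 CPM in both groups. Of 6 tested, 1 rose and 2 fell (median -0.59), among them the plaque genes Pkp2 (1.19) and Dsp (-2.55). Of 9 nectins and nectin-like genes, 2 rose and 6 fell (median -1.23). Cadm1, a nectin-like adhesion molecule, gave 1.73, 1.595 and 1.41 CPM in KMT2D KO, against 117, 107 and 121 CPM in KMT2D WT (-6.17, adjusted p = 2.3e-16), and the nectin gene Pvrl1 fell too (-1.99). Cadm4 (2.09) and Pvrl2 (0.48) rose.

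Genes that act on cadherins moved in both directions, where 71.0% of all tested genes were called. Of 8 genes of the proteases that cleave cadherins, 1 rose and 4 fell (median -0.08), with Adam10, which sheds E- and N-cadherin, at 129 CPM in KMT2D KO and 226 CPM in KMT2D WT (-0.81). The gamma-secretase gene Psen2 rose (0.57). Of 8 repressors of Cdh1, 2 rose and 4 fell (median -0.18). Snai1 rose to 92.1 CPM in KMT2D KO, against 34.9 CPM in KMT2D WT (1.4), and Twist1 by 0.17, while Twist2 (-4.04) and Snai2 (-1.69) fell. The call of Twist1 was lost under library size alone (0.0554), with the filter at 1 CPM (0.15) and without KMT2D KO replicate 1 (0.15), KMT2D KO replicate 2 (0.15), KMT2D WT replicate 1 (0.13) or KMT2D WT replicate 2 (0.17). Promoter use in the protocadherin clusters depends on CTCF and the cohesin ring and is limited by Smchd1 and DNA methylation. Of 14 genes of this list, 8 rose and 3 fell (median 0.22). Ctcf itself averaged 57.4 ± 1.48 CPM in KMT2D KO and 56.2 ± 1.85 CPM in KMT2D WT (SD, n = 3 each) and was not called (log2 fold change 0.03, edgeR adjusted p = 0.65). Ctcf was named after its value was seen. The cohesin gene Rad21 rose (0.51), as did the DNA methyltransferase gene Dnmt3b (1.71 CPM in KMT2D KO and 0.783 CPM in KMT2D WT, 1.13), while the cohesin genes Stag1 (-0.62) and Pds5a (-0.56) fell. The related genes Stag2 (0.37) and Pds5b (0.42) rose. Smchd1 was called higher (0.14, edgeR adjusted p = 0.043). That call was lost with DESeq2 (0.13), RLE factors (0.13), library size alone (0.0286) and the filter at 1 CPM (0.12). It was also lost without KMT2D KO replicate 1 (0.13), KMT2D KO replicate 2 (0.17), KMT2D KO replicate 3 (0.16) or KMT2D WT replicate 2 (0.098).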

How the data were processed

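Per the file headers, the authors deposited whole-number counts of fragments per gene, made with featureCounts 1.5.2 (paired-end mode, exons summed per gene of an mm9 annotation, no strand option). The submitters' processing notes name STAR and HTSeq, and mm9 as the build. Counts of all 24391 genes were tested with edgeR 4.0.16 in R 4.3.3 (TMM scaling, low-count filter by group, quasi-likelihood F test, group as the only term), and 14579 genes passed the filter. Genes with a Benjamini-Hochberg adjusted p under 0.05 were called. The standard error is the log2 fold change divided by the square root of F. A positive log2 fold change means higher in KMT2D KO. CPM use TMM-scaled library sizes, and levels per kilobase divide them by the exon length not shared with another gene. Coordinates of genes are mm9, as in the files. Counts of libraries of a group differed by more than sampling noise (chi-square 11.6 to 26.4 per degree of freedom). A floor of 3 counts over a group corresponds to 0.0157 CPM in KMT2D KO and 0.0182 CPM in KMT2D WT. Floors and the exact 95% intervals cover counting error only.

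Members and lists were chosen with earlier results of these data known. Named in every case were members with at least 1 CPM in a group, Cdh1, Cdh2, Cdh3, Cdh5, Cdh11, Cdh13, Pcdh9 and Kmt2d. Of each of 7 related lists up to 2 genes called in each direction with the largest change and at least 1 CPM were named, and of each of 7 marker lists its most abundant gene. Genes outside this rule, and the neighbours of the clusters, were chosen after their values were seen. Of 128 listed genes, Dchs2 and Cdhr4 were not analysed here. A gene that the naming rule covers and an allele that both groups share are not reported here. The script was tested on simulated data. Alternatives were RLE factors, library size alone, DESeq2 1.42.0, voom of limma 3.58.1, no filter, genes averaging 1 CPM or more, a replicate block, and leaving out each library.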

Additional observations from a re-analysis of the deposited data

How the results depend on the processing

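Over 13 alternative settings, 14 to 18 members were called higher and 24 to 36 lower, against 17 and 33, and none of these counts moved by over 1.5 times. Of 56 named members that were tested, 44 kept their direction and their side of the threshold in every setting. Cdh23, Pcdhb5, Pcdhb11, Pcdhb16, Pcdhb21 and Cdh24 crossed the threshold in some, among them Cdh24 without KMT2D WT replicate 3 (-0.63). Members that turned their sign were not called in any setting that did so. With library size alone, which moved the median of all genes by -0.11, Pcdhb7 was at -0.0034. With single libraries left out, values lay between -0.33 and 0.38 for Cdh1, -0.75 and 0.41 for Cdh3, -0.16 and 0.0902 for Pcdh15, -0.0561 and 0.27 for Pcdhb7, -0.33 and 0.0911 for Pcdhb9, and -0.16 and 0.16 for Pcdhb19. The cause was not tested. Same-numbered libraries correlated at 0.0085 to 0.015 in their deviations, and the other pairs at -0.017 to 0.0071. All lay near 0, but 3 libraries a group are too few to settle whether replicate numbers pair the libraries. With the replicate block 17 members were called higher and 33 lower, and 48 members were called both with and without it. The block ended the calls of Cdh23 (adjusted p = 0.057) and Pcdh12 (0.063) and added Pcdhb11 (0.037) and Pcdhb16 (0.038). Genes under 1 CPM rest on few counts, and clustered genes on their unshared exons.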

Other observations

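Among the 26 members that did not pass the filter, several had counts in a few libraries only. Cdh7, a type II cadherin of the neural crest, had 1, 0 and 0 counts in KMT2D KO and 0, 0 and 19 counts in KMT2D WT, so 19 of its 20 counts came from KMT2D WT replicate 3. Its neighbour on chromosome 1, Cdh20, had 0, 0 and 0 counts in KMT2D KO and 0, 2 and 7 counts in KMT2D WT. Cdh4, the R-cadherin gene, had 0, 1 and 0 counts in KMT2D KO and 3, 14 and 2 counts in KMT2D WT, most of them in replicate 2, a ratio of KMT2D WT to KMT2D KO of 22.02 (exact 95% interval 3.500 to 915). Cdh9, a type II cadherin of hippocampal synapses, had 0, 2 and 0 counts in KMT2D KO and 3, 5 and 7 counts in KMT2D WT, a ratio of 8.69 (2.02 to 78.3). Pcdh10, a delta protocadherin, had 8, 5 and 1 counts in KMT2D KO and 32, 55 and 4 counts in KMT2D WT, with groups that overlapped. Cdh15, the M-cadherin gene of muscle, had 6, 4 and 0 counts in KMT2D KO and 0, 0 and 0 in KMT2D WT, and the kidney cadherin gene Cdh16 had 0, 5 and 2 in KMT2D KO and 0, 0 and 0 in KMT2D WT.

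Some members passed the filter at under 1 CPM. Pcdh11x, a delta protocadherin on chromosome X, had 6, 0 and 0 counts in KMT2D KO and 10, 29 and 8 counts in KMT2D WT (log2 fold change -3.11, edgeR adjusted p = 0.0091). Its value was -6.96 without KMT2D KO replicate 1, and its call was lost without KMT2D KO replicate 2 (-2.59) or KMT2D WT replicate 2 (-2.46). Pcdh12, an endothelial protocadherin at the edge of the cluster region, had 54, 49 and 26 counts in KMT2D KO and 10, 12 and 21 counts in KMT2D WT (1.29, edgeR adjusted p = 0.036), beside endothelial markers that were all under 1 CPM. The call of Pcdh12 was lost without KMT2D KO replicate 1 (1.24), KMT2D KO replicate 2 (1.14), KMT2D WT replicate 1 (1.04) or KMT2D WT replicate 2 (1.09), and under library size alone (1.18). Cdh26 was not called (28, 25 and 28 counts in KMT2D KO and 23, 15 and 21 counts in KMT2D WT).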
